A study of Mus musculus with 12 samples.

Results

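Genes that make, inactivate and clear prostaglandins and leukotrienes were followed in the lungs of CD-1/ICR mice, with Ptgs2, the inducible cyclooxygenase, as the leading gene. The members were all probe sets that the platform annotation assigns to 8 gene symbols: Ptgs2, Ptgs1, Ptges, Ptgis, Ptgds, Hpgd, Alox5 and Alox5ap. The annotation gave 10 probe sets for 6 of these genes, of 22626 probe sets and 12393 genes in all. Ptgs1 and Alox5 had no assigned probe set among the values used and were not analysed here. A filter on low signal (a scaled signal of at least 100 on at least 3 arrays) kept 8 of the 10 probe sets and 15882 probe sets in all, and the dimmer probe sets of Ptges and Ptgds did not pass it.

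The study hybridised total lung RNA to Affymetrix 430A arrays of mouse genes, with 4 groups of 3 arrays. Wild-type mice (Nrf2+/+) and mice deficient in the transcription factor Nrf2 (Nrf2-/-, called knockout below) either breathed spontaneously (SpV, the controls) or were ventilated at a high tidal volume of 30 ml/kg (HVT), both for 2 h. The title of the study concerns oxidative stress in lung injury by ventilators, so the comparisons ask what ventilation and the loss of Nrf2 each did to these genes. By its label, array 1 of the wild-type SpV group was made from a whole lung, and the other 11 arrays from the left lobe. The labels do not state that the 3 arrays of a group came from separate animals, so the p-values measure the spread between arrays, which may be technical.

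Prostaglandin synthesis starts when a phospholipase frees arachidonic acid from membranes. A cyclooxygenase, constitutive Ptgs1 or inducible Ptgs2, turns it into an unstable intermediate that terminal synthases convert to single products: Ptges makes prostaglandin E2, Ptgis makes prostacyclin and Ptgds makes prostaglandin D2. In lung, Slco2a1 carries prostaglandins into cells and Hpgd oxidises them to inactive products, while Alox5, helped by the membrane protein Alox5ap, sends arachidonic acid towards the leukotrienes.

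Ptgs2 lies at chr1:150100031-150108234 of mouse assembly GRCm38.p6, Ptges at chr2:30889471-30931020, Ptgis at chr2:167203194-167252150, Ptgds at chr2:25466709-25470110, Hpgd at chr8:56294552-56321046 and Alox5ap at chr5:149265004-149288153. RefSeq promoter windows of 300 bases (250 before and 50 after a start site) were on hand for 6 of the 8 listed genes, all but Ptgis and Alox5ap. Under ventilation the brighter Ptges probe set ran opposite to Ptgs2 in sign, by a difference that did not pass. The windows of Ptgs2 and Ptges are shown for that reason and because these enzymes act in series towards prostaglandin E2. They come from RefSeq on GRCm38.p6, at chr1:150099781-150100080 on the plus strand for Ptgs2 and at chr2:30903248-30903547 on the minus strand for Ptges. The Ptgs2 start site is the first base of its locus, whereas the Ptges start site lies inside the locus given above, downstream of its far end at 30931020, so the Ptges window describes an internal transcript start. Capitals mark matches to the motifs searched on both strands.
Ptgs2: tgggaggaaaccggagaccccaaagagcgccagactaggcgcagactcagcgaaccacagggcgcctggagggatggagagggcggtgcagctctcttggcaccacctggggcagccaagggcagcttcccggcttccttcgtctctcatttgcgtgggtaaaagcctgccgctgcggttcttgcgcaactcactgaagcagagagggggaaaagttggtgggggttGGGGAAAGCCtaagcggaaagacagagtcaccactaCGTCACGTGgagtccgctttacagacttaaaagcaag
Ptges: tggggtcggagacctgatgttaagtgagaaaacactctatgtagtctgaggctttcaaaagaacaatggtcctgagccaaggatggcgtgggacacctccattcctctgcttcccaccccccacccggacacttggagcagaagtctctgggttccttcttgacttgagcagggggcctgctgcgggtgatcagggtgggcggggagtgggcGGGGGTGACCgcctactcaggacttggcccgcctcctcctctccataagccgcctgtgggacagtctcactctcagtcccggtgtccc
The Ptgs2 window held the E-box CACGTG at positions 17 to 22 after the start site, which 7.15% of 32851 mouse promoter windows of that length also held. The capitals before it are a match to the NF-kB-like pattern (GGG, any 5 bases, then CC) at positions -23 to -14, a loose pattern present in 50.8% of the windows. The E-box overlaps a match on the opposite strand to the core TGACG of the cAMP response element, at positions 14 to 18. That motif was added after the Ptgs2 window had been read, and 20.8% of windows held it. The Ptges window matched only the NF-kB-like pattern, at positions -38 to -29, and the Hpgd window matched none of the motifs. The Ptgs2, Ptges and Hpgd windows held no match to the antioxidant response element core TGACNNNGC, which Nrf2 binds (12.4% of windows). They also held none to the AP-1 site TGANTCA (7.81%) or to the full cAMP response element TGACGTCA (1.79%). The Ptgds window, not shown, held an AP-1 match at positions -35 to -29. A match describes letters and was not tested as a binding site.

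The arrays differed in brightness and RNA quality. Before normalization the trimmed mean signal was 73.4 on knockout SpV array 1 and 181 to 468 on the other arrays, and the 3' to 5' signal ratio of actin was 8.76 on that array and 1.39 to 3.10 elsewhere. The knockout HVT arrays also stood apart, with trimmed means of 181 to 245 against 278 to 438 at wild-type HVT and actin ratios of 2.21 to 3.10 against 1.53 to 1.99. Knockout SpV arrays 2 and 3 had trimmed means of 468 and 445 and actin ratios of 1.39 and 1.52. Brightness and RNA quality thus moved with the knockout HVT values of Hpgd, Slco2a1, Pla2g1b, Lta4h, Alox5ap and Dpep1. Their part in those results was not tested. In wild type the actin ratio also differed by breathing without overlap, at 2.08 to 2.51 at SpV and 1.53 to 1.99 at HVT. Its part in the wild-type ventilation differences, among them those of Ptgs2 and Ptger4, was not tested. Because of its low signal and high actin ratio, knockout SpV array 1 was also left out, and for several results both values are given. Nfe2l2, the gene of Nrf2, had a signal of 2152.3 to 3307.9 on wild-type arrays and 36.3 to 61.5 on knockout arrays, which matches the genotype labels. The lung identity of the samples showed in the alveolar type II marker Sftpc, the surfactant protein C gene, at a mean of 19262.3 to 24533.1 in the 4 groups. Normalized signals are in intensity units and are comparable between arrays for 1 probe set, not between probe sets. Log2 differences below were taken on log2(signal + 16), which understates changes of dim probe sets, and are given ± SE from limma with 3 arrays per group.

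Ptgs2 was higher under ventilation in both genotypes. On its brighter probe set, 1417262_at, the signals were 131.4, 674.1 and 296.5 on the wild-type SpV arrays and 2744.9, 1228.8 and 3578.4 on the wild-type HVT arrays. They were 168.2, 589 and 537.9 on the knockout SpV arrays and 1242, 2224.1 and 4104.6 on the knockout HVT arrays. Each of the 6 ventilated arrays was above each of the 6 spontaneously breathing arrays, which held for 0.623% of all probe sets tested. The group means were 367.3 ± 278.2 and 2517.4 ± 1191.2 (SD, n = 3) in wild type, and 431.7 ± 229.7 and 2523.6 ± 1454.6 (SD, n = 3) in knockout.

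Averaged over genotypes, Ptgs2 rose with ventilation by 2.69 ± 0.44 on the log2 scale, or 6.47-fold with a 95% interval of 3.31 to 12.6 (limma, adjusted p = 0.0457). Over all probe sets tested, 0.126% passed this threshold, 14 of them higher and 6 lower. Ptgs2 had the second-largest increase of the 15882 probe sets in this comparison and ranked 16 by p. An exact two-sided permutation of the breathing labels within each genotype gave p = 0.005, the smallest its 400 arrangements allow. Any probe set without overlap in the same direction in both genotypes gives this value. It therefore adds nothing to the lack of overlap given above, and it is not adjusted for the number of probe sets. The adjusted p lay close to the threshold, and the call ended with equal medians (2.67, adjusted p = 0.0569), the deposited values without scaling (2.46, 0.0506), no filter (2.69, 0.0797) and no intensity trend (2.69, 0.0813). Without knockout SpV array 1 it was 0.00925, for a difference of 2.42 ± 0.41. Leaving out any other array gave differences of 2.42 to 2.97 and ended the call: the adjusted p was 0.0533 to 0.126 without a wild-type SpV array (1, 2 or 3), 0.0511 to 0.162 without a wild-type HVT array (1, 2 or 3), 0.0685 to 0.0859 without knockout SpV array 2 or 3, and 0.0582 to 0.139 without a knockout HVT array (1, 2 or 3).

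**Figure D1:**
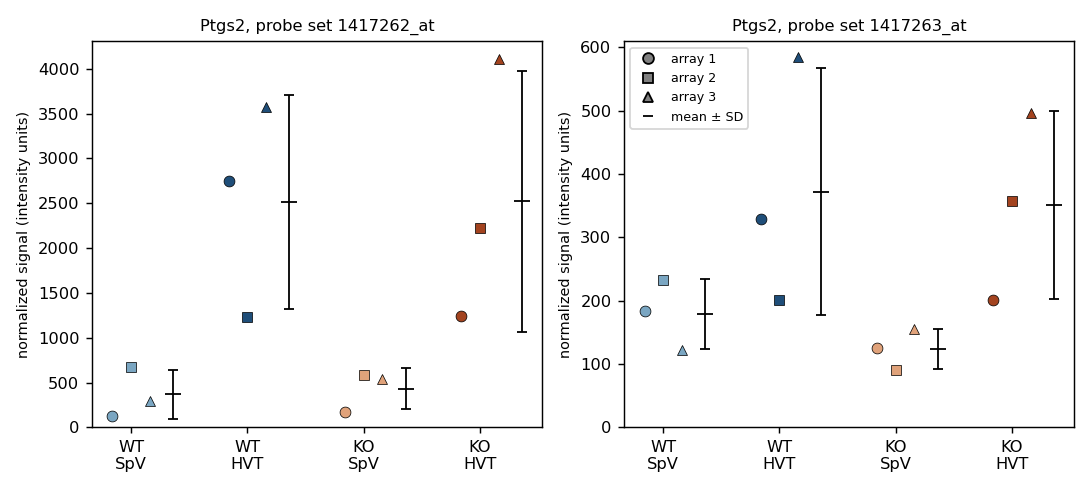
Normalized signal (intensity units, y axis from 0) of the Ptgs2 probe sets 1417262_at and 1417263_at in the 4 groups, with 1 point per array and the mean ± SD of 3 arrays beside the points. On 1417262_at the 6 HVT arrays lie between 1228.8 and 4104.6 and the 6 SpV arrays between 131.4 and 674.1.

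Within a genotype the differences on 1417262_at did not pass the threshold. Ventilation gave 2.87 ± 0.63 in wild type (7.30-fold, 95% interval 2.84 to 18.8, adjusted p = 0.212) and 2.52 ± 0.63 in knockout (5.73-fold, 2.23 to 14.7, adjusted p = 0.225). Over all probe sets, 0.0252% passed in wild type. In knockout none passed with limma, while 1772 probe sets (11.2%) had an unadjusted p under 0.05. The HVT arrays lay above the SpV arrays without overlap in each genotype, as they did for 8.41% of probe sets in wild type and 7.49% in knockout. Exact tests of 3 arrays against 3 cannot go below p = 0.1. Leaving out knockout SpV array 1 gave a knockout difference of 1.97 ± 0.61 (adjusted p = 0.0724).

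The Ptgs2 response was not shown to depend on Nrf2. The difference between the knockout and wild-type responses was -0.35 ± 0.89 with a 95% interval of -2.28 to 1.58, so these arrays do not exclude a response several-fold larger or smaller in knockout. Its adjusted p was 1, and no probe set passed the interaction test in limma, although 796 (5.01%) had an unadjusted p under 0.05. Knockout differed from wild type by 0.32 ± 0.63 (-1.04 to 1.68) in SpV lungs and by -0.03 ± 0.63 (-1.39 to 1.33) in HVT lungs. Without knockout SpV array 1, which had the lowest Ptgs2 signal of its group, the interaction was -0.91 ± 0.81 (-2.68 to 0.86). The SpV genotype difference was then 0.88 ± 0.61 (-0.44 to 2.20) and did not pass (adjusted p = 0.52).

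The second Ptgs2 probe set, 1417263_at, was also higher under ventilation, by a smaller amount. Its signals were 183.7, 232.9 and 122.4 on wild-type SpV arrays and 329.6, 201.6 and 584.9 on wild-type HVT arrays, which overlap. In knockout they were 125.4, 90.8 and 155.1 at SpV and 200.5, 357.6 and 497 at HVT, with no overlap. The averaged ventilation difference was 1.12 ± 0.28 (2.17-fold, 1.43 to 3.30, adjusted p = 0.115). It was 1.14 ± 0.29 without knockout SpV array 1 and passed (adjusted p = 0.0411), in a fit where 6.09% of all probe sets passed. The probe sets of Ptgs2 thus gave the same direction and different sizes.

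**Figure D2:**
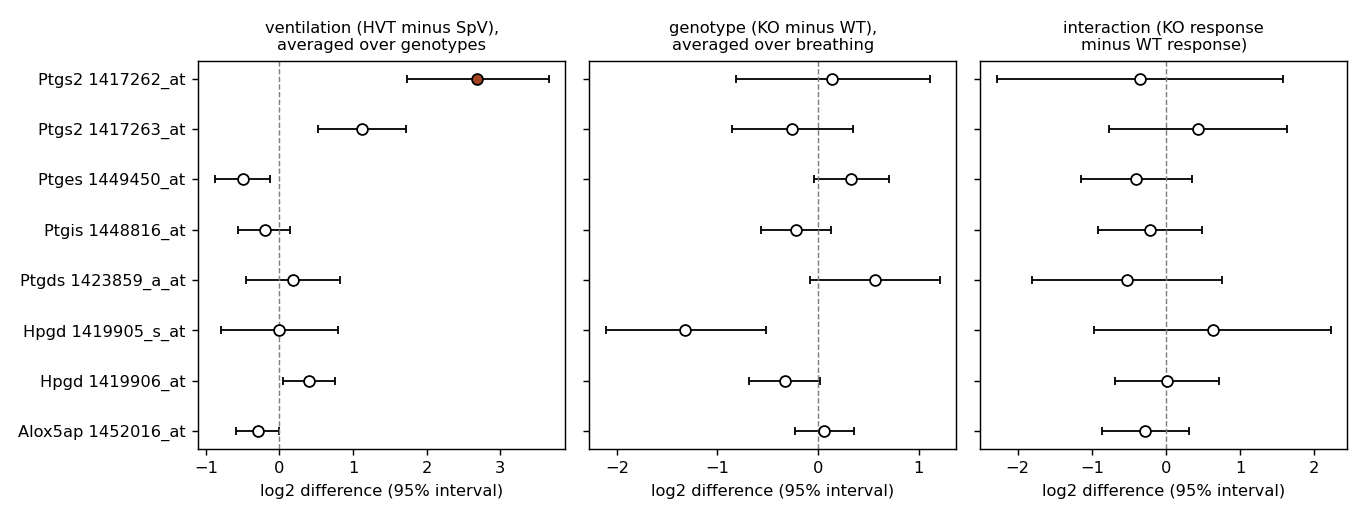
Log2 differences with 95% intervals (x axis) for the 8 member probe sets tested (rows), for ventilation averaged over genotypes, genotype averaged over breathing and the interaction. The filled point marks an adjusted p under 0.05, which Ptgs2 1417262_at reached for ventilation at 2.69, and the interaction intervals of all 8 probe sets include 0.

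Of the 8 member probe sets tested, 1 passed in the averaged ventilation comparison, as did 0.126% of all probe sets. Members with a positive difference numbered 4 and those with a negative difference 4, with a median of 0.09 against 0.00 over all probe sets. In the averaged genotype comparison none of the 8 passed in limma and 1 had an unadjusted p under 0.05, against 3.24% and 19.8% of all probe sets.

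Ptges is the inducible synthase that takes the Ptgs2 product on to prostaglandin E2. On its brighter probe set it had lower values under ventilation, where Ptgs2 was higher. Its probe set 1449450_at read 132.9, 155.1 and 138.1 on wild-type SpV arrays and 99.5, 92.2 and 151.7 on wild-type HVT arrays. In knockout it read 263.3, 185.3 and 195.2 at SpV and 156.4, 97.3 and 125.2 at HVT. The wild-type groups overlapped, and in knockout every HVT array was below every SpV array, which held for 7.49% of probe sets. The averaged ventilation difference of -0.50 ± 0.17 did not pass (adjusted p = 0.241), nor did the knockout difference of -0.70 ± 0.24 (adjusted p = 0.351). The knockout SpV arrays also lay above the wild-type SpV arrays, by 0.53 ± 0.24 (adjusted p = 0.386), a lack of overlap in that direction seen for 8.52% of probe sets. Without knockout SpV array 1, which held the highest value, none of these differences passed. The averaged ventilation difference was then -0.43 ± 0.17 (adjusted p = 0.145) and the knockout difference -0.56 ± 0.25 (adjusted p = 0.192). The SpV genotype difference was 0.39 ± 0.25 (adjusted p = 0.488). The other Ptges probe set, 1449449_at, had signals of 9.5 to 92.2 and did not pass the filter. Fitted without the filter, its ventilation difference was 0.18 ± 0.32 on average and 0.43 ± 0.45 in knockout, opposite in sign to 1449450_at.

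Prostacyclin synthase, Ptgis, showed no difference that passed. Probe set 1448816_at read 2691.3 to 3399.9 at SpV and 2488 to 3009.6 at HVT in wild type, and 2366 to 3041.3 and 1461.1 to 3149.9 in knockout, with overlap between all groups. Its averaged ventilation difference was -0.20 ± 0.16 with a 95% interval of -0.56 to 0.15 (adjusted p = 0.63), and its averaged genotype difference -0.22 ± 0.16 (-0.57 to 0.13). As a ratio of HVT to SpV, the ventilation interval spanned 0.680 to 1.11.

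The prostaglandin D2 synthase Ptgds was dim on both of its probe sets. On 1423859_a_at the signals were 55.7 to 101 at SpV and 65.8 to 213 at HVT in wild type, and 102 to 286 and 123 to 203.3 in knockout. The averaged genotype difference was 0.57 ± 0.30 (adjusted p = 0.317) and the averaged ventilation difference 0.18 ± 0.30 (adjusted p = 0.84). The highest value, 286, came from knockout SpV array 1, and without that array the genotype difference was 0.37 ± 0.27. The averaged ventilation difference was then 0.38 ± 0.27. The other probe set, 1423860_at, had signals of 25.4 to 86.2 and did not pass the filter.

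**Figure D3:**
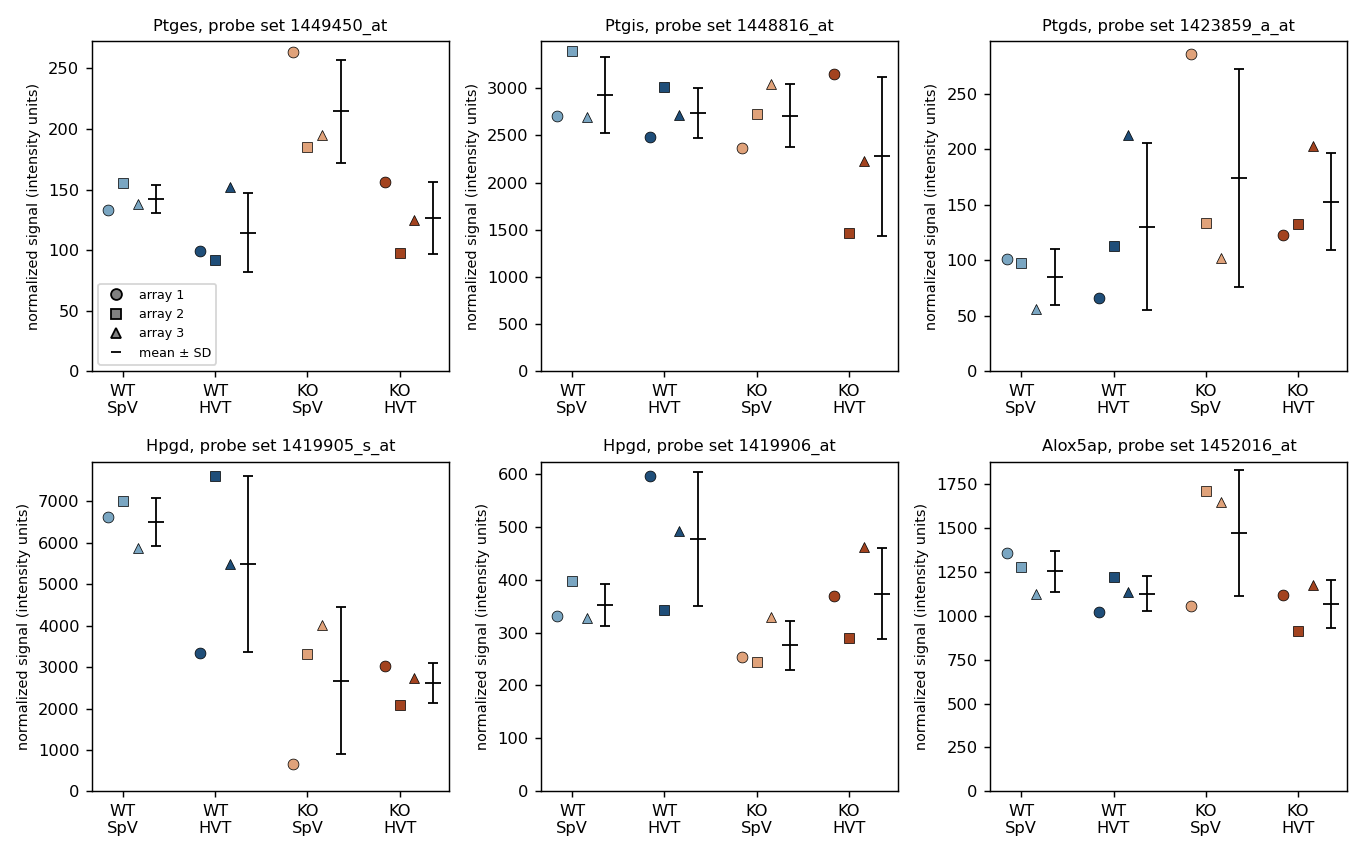
Normalized signal (intensity units, y axes from 0) of the 6 other member probe sets tested, with 1 point per array and the mean ± SD of 3 arrays in each of the 4 groups. Hpgd 1419905_s_at is lower in both knockout groups, at means of 2674 and 2616.1, than in the wild-type groups, at 6506.7 and 5485.6.

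Hpgd, the dehydrogenase that starts the breakdown of prostaglandins, had a lower signal in knockout lungs on its brighter probe set. On 1419905_s_at the wild-type signals were 6629.5, 7011.2 and 5879.3 at SpV and 3350.9, 7611.8 and 5494 at HVT. The knockout signals were 673.7, 3327.9 and 4020.6 at SpV and 3030.8, 2084.7 and 2732.7 at HVT. Every knockout array was below every wild-type array under the same breathing, which held for 9.27% of probe sets at SpV and 13.1% at HVT. Probe sets ending in s_at can bind related transcripts as well.

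The averaged genotype difference of this Hpgd probe set was -1.32 ± 0.37 (95% interval -2.11 to -0.52) and did not pass (adjusted p = 0.0725). Without knockout SpV array 1, which held the lowest value, it was -0.90 ± 0.18 and passed (adjusted p = 0.0116), where 5.42% of all probe sets passed. It also passed without knockout SpV array 2 (-1.49 ± 0.37, adjusted p = 0.0434), where 760 of 15882 probe sets passed. Without knockout SpV array 3 it passed too (-1.56 ± 0.35, adjusted p = 0.0422), where 373 passed. Both of these fits keep knockout SpV array 1 and its low value. Within SpV lungs, where 0.504% of all probe sets passed, the difference was -1.63 ± 0.52 (adjusted p = 0.216). Without knockout SpV array 1 the SpV difference was -0.80 ± 0.26 (adjusted p = 0.144). Within HVT lungs it was -1.0 ± 0.52 in the fit of all arrays (adjusted p = 0.457, where 0.636% passed). The HVT difference passed without knockout SpV array 1, at -0.99 ± 0.23 (adjusted p = 0.0354, where 4.65% of probe sets passed). The averaged ventilation difference of this probe set was -0.01 ± 0.37 with all arrays, which did not pass. Without knockout SpV array 1 it was -0.40 ± 0.18 (95% interval -0.79 to -0.02), which did not pass either (adjusted p = 0.181). The ventilation difference in knockout changed sign, from 0.31 ± 0.52 with that array to -0.50 ± 0.26 without it.

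The second Hpgd probe set, 1419906_at, differed less between genotypes. It read 326.9 to 398 at SpV and 341.9 to 595.2 at HVT in wild type, and 244.2 to 329.2 and 289.7 to 460.9 in knockout. The averaged genotype difference was -0.33 ± 0.16 (adjusted p = 0.28), and the averaged ventilation difference was 0.40 ± 0.16 (adjusted p = 0.314). Both probe sets of Hpgd were thus lower in knockout by value, the dimmer one by less.

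Some sets of cell type markers also differed between genotypes, in either direction. The summed signal of 7 endothelial markers was 11324 to 20564.2 on wild-type arrays, 7708.4 to 13096.3 at knockout SpV and 6680.4 to 8395 at knockout HVT, and 4 of the 7 passed as lower in knockout in the averaged comparison. The sum of the 5 alveolar type I markers measured was 20631.6 to 34345.6 in wild type, 12032.9 to 24731.7 at knockout SpV and 9774.5 to 14895.5 at knockout HVT, and 2 of the 5 passed as lower. The sum of 7 heart markers was 25532.1 to 40412.2 in wild type and 43167.8 to 62679.7 in knockout, with 6 of 7 passing as higher. Among smooth muscle markers 3 of 5 passed as higher, as did 1 of 5 for platelets and 1 of 8 for neutrophils. No type II or airway marker passed, with median differences of -0.05 and 0.11. Of all probe sets, 3.24% passed in this comparison. In bulk tissue, fewer cells of a type and less RNA per cell cannot be told apart, and the part of these markers in the Hpgd result was not tested.

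Slco2a1, the transporter that delivers prostaglandins to Hpgd, was lower in knockout lungs. On probe set 1420913_at it read 3718, 5311 and 4016.8 at wild-type SpV and 2163.7, 4261.3 and 2582.7 at wild-type HVT. In knockout it read 578.1, 2953.7 and 2253.7 at SpV and 1095.8, 838.6 and 1068.6 at HVT. The knockout arrays were below the wild-type arrays without overlap under each kind of breathing, as they were for 9.27% of probe sets at SpV and 13.1% at HVT. The averaged genotype difference was -1.48 ± 0.33 and passed (adjusted p = 0.0318), as did 3.24% of all probe sets. The other Slco2a1 probe sets gave -1.36 ± 0.46 (1450032_at, adjusted p = 0.132) and -0.77 ± 0.30 (1420914_at, adjusted p = 0.183).

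The Slco2a1 call on 1420913_at was lost, with differences of -1.34 to -1.54 and adjusted p of 0.0579 to 0.0914, when any 1 of 8 arrays was left out: wild-type SpV array 1, 2 or 3, wild-type HVT array 2 or 3, or knockout HVT array 1, 2 or 3. Without knockout SpV array 1 it was kept at -1.12 ± 0.17 (adjusted p = 0.00309, where 5.42% of all probe sets passed). In that fit this probe set was also lower under ventilation. The difference was -0.97 ± 0.17 averaged over genotypes (adjusted p = 0.0111, where 6.09% of all probe sets passed). In knockout it was -1.36 ± 0.26 (adjusted p = 0.0135, where 6.35% passed). Probe set 1450032_at passed there as well, at -0.86 ± 0.22 for averaged genotype (adjusted p = 0.0451) and -1.40 ± 0.22 for averaged ventilation (adjusted p = 0.00858). The endothelial and type I marker sums given above moved with Slco2a1 too, and their part in it was not tested.

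**Figure D4:**
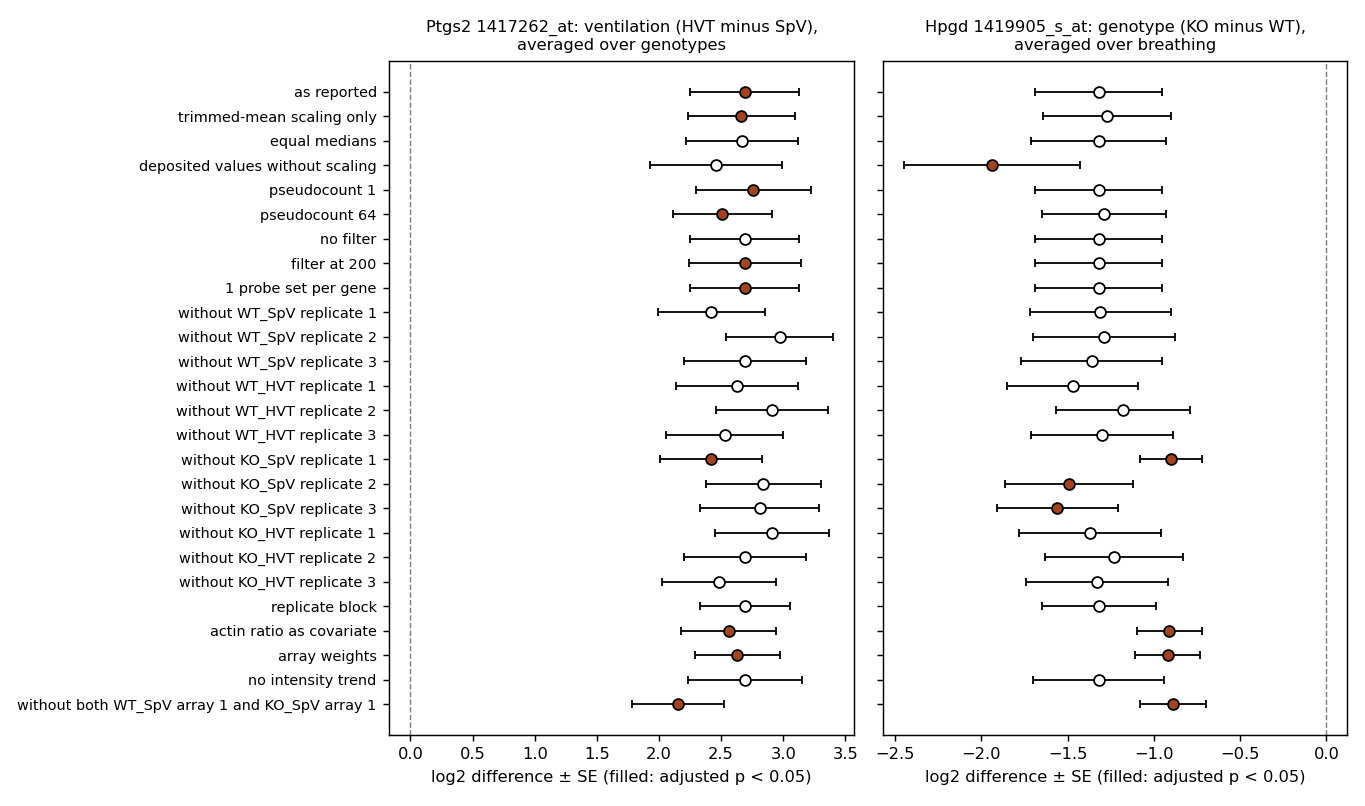
Log2 difference ± SE (x axis) of Ptgs2 1417262_at for averaged ventilation and of Hpgd 1419905_s_at for averaged genotype under each processing setting (rows), filled where the adjusted p was under 0.05. The Ptgs2 values lie at 2.15 to 2.97 and the Hpgd values at -1.94 to -0.89, so each keeps its direction while its side of the threshold changes between settings.

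Alox5ap presents arachidonic acid to Alox5 at the start of leukotriene synthesis. It did not pass in any comparison of the reported fit, with all 12 arrays weighted equally and no covariate. It read 1358.2, 1274.5 and 1122.6 at wild-type SpV and 1019.8, 1220.5 and 1135.7 at wild-type HVT. In knockout it read 1057.2, 1708.2 and 1648.8 at SpV and 1115.5, 913.6 and 1173.5 at HVT. Knockout SpV arrays 2 and 3 held the highest values of all. The ventilation difference was -0.15 ± 0.19 in wild type (adjusted p = 0.942), -0.43 ± 0.19 in knockout (adjusted p = 0.429) and -0.29 ± 0.14 on average (adjusted p = 0.385).

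Without knockout SpV array 1, Alox5ap fell with ventilation in knockout, by 0.65 ± 0.16 on the log2 scale (adjusted p = 0.0323, where 6.35% of all probe sets passed), and on average, by 0.40 ± 0.10 (adjusted p = 0.0426, where 6.09% passed). With all 12 arrays and array weights in limma it also passed, at -0.62 ± 0.13 in knockout (adjusted p = 0.0139) and -0.36 ± 0.09 on average (adjusted p = 0.0277). In that weighted fit 2089 of the 15882 probe sets passed for ventilation in knockout and 1734 on average. The summed signal of 8 neutrophil markers was 6699.8, 22933.1 and 13057 on knockout SpV arrays 1, 2 and 3, and 4034.3 to 6276.6 on knockout HVT arrays. The neutrophil sum therefore ran high on the same arrays as Alox5ap, a gene of myeloid cells. Of the 8 markers, 7 were lower and 1, Ltf, was higher under ventilation in knockout. The sum of the 5 macrophage markers measured was 611.9, 7106.6 and 3391 on knockout SpV arrays 1, 2 and 3. It was 1689.4, 7245.1 and 1973.3 on knockout HVT arrays 1, 2 and 3. The part of either sum in the Alox5ap result was not tested. Knockout SpV arrays 2 and 3 were also brighter, with lower actin ratios, than the knockout HVT arrays, and this was not tested either. In wild type the neutrophil sum was 5556.1 to 8043 at SpV and 4179.9 to 8896.1 at HVT. In the reported fit, with all arrays weighted equally and no covariate, 0 of the 8 neutrophil markers passed for ventilation in either genotype.

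The rest of the pathway was read from a list of 51 symbols in 7 roles, of which 44 genes with 66 probe sets were on the array and 30 genes with 39 probe sets were tested. None of the 39 probe sets passed in any ventilation comparison or in the interaction, and 1, the Slco2a1 probe set described above, passed for averaged genotype, where 3.24% of all probe sets passed. A share of 1 in 39 is no more than that background. Genes of the list are named below because they had the smallest p of their role for averaged ventilation, so their direction is a description.

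Among phospholipases, 8 of 11 genes on the array were tested. Pla2g1b, a secreted phospholipase, read 293.7 to 426.8 at wild-type SpV, 298.5 to 310.8 at wild-type HVT, 278.2 to 352.9 at knockout SpV and 139.2 to 177.6 at knockout HVT on probe set 1437015_x_at. The knockout HVT group thus lay below the other groups, and its ventilation difference of -0.91 ± 0.18 did not pass (adjusted p = 0.192). Its other probe set, 1416626_at, had an averaged ventilation difference of 0.22 ± 0.32, with the opposite sign to the -0.51 ± 0.13 of 1437015_x_at. Pla2g4a, the cytosolic phospholipase that frees arachidonic acid upon stimulation, had an averaged ventilation difference of 0.27 ± 0.14 (adjusted p = 0.434). Pla2g1b 1437015_x_at passed for ventilation in knockout without knockout SpV array 1 (-0.83 ± 0.19, adjusted p = 0.0297, where 6.35% of probe sets passed).

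The receptors and remaining synthases gave no call in the reported fit, with all arrays weighted equally and no covariate. Of 9 prostanoid receptor genes on the array, 4 were tested. Ptger4, a receptor for prostaglandin E2, read 246.8, 156.2 and 277.7 at wild-type SpV and 662.1, 392.1 and 535.6 at wild-type HVT, with no overlap, a difference of 1.17 ± 0.44 (adjusted p = 0.544). In knockout it read 129.4, 461.7 and 644.8 at SpV and 413.8, 312.8 and 394.5 at HVT, a difference of 0.11 ± 0.44. Without knockout SpV array 1 that difference was -0.54 ± 0.27 (adjusted p = 0.235). The test of the difference between these responses gave -1.06 ± 0.63 with all arrays (adjusted p = 1) and -1.72 ± 0.36 without knockout SpV array 1 (adjusted p = 0.056, where 0.642% of probe sets passed), and neither passed. In the fit without that array Ptger4 was higher in knockout than in wild type at SpV, by 1.26 ± 0.27 (adjusted p = 0.0379, where 1.89% of probe sets passed). The averaged ventilation differences were -0.26 ± 0.41 for Ptger2, another prostaglandin E2 receptor, -0.27 ± 0.19 for the carbonyl reductase Cbr1 and -0.30 ± 0.27 for the thromboxane synthase Tbxas1.

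In the leukotriene branch, Lta4h, the hydrolase that makes leukotriene B4, had lower values under ventilation. Probe set 1434790_a_at read 382.7, 509.4 and 453.3 at wild-type SpV, 350.4, 337 and 284.5 at wild-type HVT, 401.2, 464.2 and 402.3 at knockout SpV, and 217.3, 272.5 and 240.7 at knockout HVT. All 6 HVT arrays were below all 6 SpV arrays, which held for 0.416% of probe sets. The averaged difference was -0.60 ± 0.12 (adjusted p = 0.0787), and it passed without knockout SpV array 1 at -0.62 ± 0.12 (adjusted p = 0.0151, where 6.09% of all probe sets passed). The dimmer Lta4h probe set, 1453528_at, gave 0.16 ± 0.41.

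Other genes of that branch differed less or less evenly. Dpep1, the dipeptidase that turns leukotriene D4 into leukotriene E4, had an averaged ventilation difference of -0.56 ± 0.24 on 1419674_a_at (adjusted p = 0.355), which was -0.79 ± 0.17 without knockout SpV array 1 (adjusted p = 0.0245, with the same 6.09% passing), and -0.12 ± 0.12 on 1435943_at. The cysteinyl leukotriene receptor Cysltr1 gave 0.18 ± 0.31. Among other lipoxygenases, the epidermal genes Aloxe3 and Alox12e gave 0.16 ± 0.22 and 0.12 ± 0.38.

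The probe sets whose log2 signal tracked Ptgs2 1417262_at most closely over the 12 arrays, of 14570 probe sets of other single genes compared, belonged to Ctnnal1 (Pearson r = 0.90), Ppp2ca (0.90), Zbtb21 (0.89), Rnf4 (0.88), Pttg1ip (0.88) and Aopep (0.87). After the group means were subtracted, r was 0.63, 0.56, 0.70, 0.65, 0.87 and 0.53 in the same order. These arrays share their tissue and differ in brightness, so r is a description. The averaged ventilation differences of these genes, 0.23 ± 0.08 for Ppp2ca to 1.08 ± 0.23 for Zbtb21, were smaller than that of Ptgs2. None passed in the reported fit, with all 12 arrays weighted equally and no covariate. Among the members, r with 1417262_at was 0.82 for the other Ptgs2 probe set, 0.66 for Hpgd 1419906_at and -0.54 for Ptges 1449450_at. After subtraction of group means the values were 0.58, 0.57 and -0.04.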

How the data were processed

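Total RNA of mouse lung was measured on 12 arrays, 3 per group. The authors deposited 1 signal per probe set, in intensity units, made with GCOS 1.4 per the submitters' processing notes. A scaling to 500 is described in the labels and was not seen in the values. Each array was therefore scaled to a 2% trimmed mean of 500, and the arrays were quantile normalized. A pseudocount of 16 was added before log2, and 64 AFFX controls were left out. Gene symbols came from the platform annotation: 20380 probe sets named 1 gene, 691 several and 1555 none. Promoters and coordinates came from RefSeq tables.

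A model of the 4 group means was fitted with limma 3.58.1 (R 4.3.3) on 12 arrays (eBayes with an intensity trend, 8 residual degrees of freedom), with 7 contrasts and Benjamini-Hochberg adjustment over 15882 probe sets within each. A probe set passed at an adjusted p under 0.05. Tests were two-sided. The number of arrays limits the precision: the median SE of a log2 difference was 0.242 between 2 groups and 0.171 for an average. The fit was tested on simulated data.

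The members, the pathway and marker lists and the alternatives were chosen with earlier results of these data known. All member probe sets are named. Of the other pathway genes, those named were every probe set that passed and the 2 with the smallest p for averaged ventilation in each role. Likeness took the 6 highest correlations with Ptgs2 1417262_at. Other scalings, pseudocounts, filters, fits and left-out arrays were run as alternatives.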

Additional observations from a re-analysis of the deposited data

How the results depend on the processing

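The averaged ventilation difference of Ptgs2 1417262_at stayed positive under every alternative run. It missed the threshold with equal medians (2.67, adjusted p = 0.0569), the deposited values without scaling (2.46, 0.0506), no filter (2.69, 0.0797), no intensity trend (2.69, 0.0813) and the replicate number as a block (2.69 ± 0.36, 0.0549), and leaving out 1 array gave 2.42 to 2.97. The within-genotype differences passed in a few alternatives: in wild type with array weights (3.26, 0.00746), and in knockout with array weights (2.00, 0.0194), with the actin ratio as a covariate (2.55, 0.0488) and, chosen after seeing the data, without both wild-type SpV array 1 and knockout SpV array 1 (1.97, 0.0499). Of all 15882 probe sets, 216 passed in wild type and 2089 in knockout with array weights. In knockout 125 passed with the actin covariate and 859 without both arrays. The cause of the shifts between alternatives was not tested.

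The member probe sets passing for averaged ventilation numbered 1 as reported and 0 with equal medians, no scaling, no filter, no trend or the block. They numbered 2 with the actin covariate, 3 with array weights, and 0 to 3 with 1 array left out. Of all 15882 probe sets, 20 passed as reported, 756 with the actin covariate, 1734 with array weights and 967 without knockout SpV array 1. For knockout ventilation the member count was 0 as reported, 1 with the actin covariate and 3 with array weights. It was 2 without both arrays and 0 to 1 with 1 array left out. Of all probe sets, 0 passed as reported, 125 with the actin covariate and 2089 with array weights. Without both arrays 859 passed, and without knockout SpV array 1 alone 1009. The member count for wild-type ventilation was 1 with array weights, where 216 of all probe sets passed. For genotype at SpV the member count was 1 with the actin covariate (582 of all probe sets) and 1 with array weights (1507). At HVT it was 1 without both arrays (610 of all probe sets) and 0 to 1 with 1 array left out (739 without knockout SpV array 1). For averaged genotype the member count was 1 without scaling, with the actin covariate, with array weights and without both arrays. Of all probe sets, 128, 914, 1705 and 733 passed in those fits. The member count was 0 to 1 with 1 array left out, where 861, 760 and 373 passed without knockout SpV array 1, 2 or 3.

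The replicate numbers were not treated as pairs in the reported fit. Of 18 pairs of arrays with the same number, 6 had a correlation of deviations over 0.1 (range -0.18 to 0.38). Arrays with different numbers were not compared in this way, so the count cannot decide whether the numbers pair the arrays. Of 1204 alternative values for the other member probe sets, 1184 stayed on the same side of the threshold and 20 passed only in the alternative; 46 changed sign without passing. Without scaling, the median of all probe sets shifted by -0.60 for averaged genotype, so genotype differences there carry that shift. Signals near the filter, as for Ptges and Ptgds, limit what can be seen of those genes.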
